A study of Mus musculus with 64 samples.

Results

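The genes described here are 32 genes of glycolysis and of the hypoxia-inducible factor 1 (HIF-1) response, chosen by symbol from a list of names, out of 55487 genes in the count files. The list holds 5 genes of glucose entry and the first steps (Slc2a1, Hk1, Hk2, Hk3, Gpi1), 5 of the phosphofructokinase step (Pfkl, Pfkm, Pfkp, Pfkfb3, Pfkfb4), 8 of lower glycolysis (Aldoa, Aldoc, Tpi1, Gapdh, Pgk1, Pgam1, Eno1, Pkm), 4 of lactate and pyruvate fate (Ldha, Slc16a1, Slc16a3, Pdk1), 4 that encode HIF subunits or prolyl hydroxylases (Hif1a, Epas1, Egln1, Egln3) and 6 HIF targets outside glycolysis (Vegfa, Bnip3, P4ha1, P4ha2, Ddit4, Ankrd37). mRNA was sequenced from murine bone marrow-derived macrophages (BMMs), grown from marrow in medium conditioned by the fibroblast line L929. Cells came from 4 Ahr+/+ mice (female C57BL/6JRj) and 4 Ahr-/- mice, which lack a working aryl hydrocarbon receptor (AhR) gene in all cells and had been crossed back to that strain, aged 8 to 12 weeks. BMMs were kept for 6 h with 0.01% DMSO, with 1 µM benzo[a]pyrene (BaP) or with 10 µM indole-3-carbinol (I3C), which are ligands of AhR, and were then activated for 3 h or 20 h with 10000000 heat-killed Salmonella Enteritidis per ml (hkSE), while unactivated cells received DMSO alone. Each genotype and time had 4 groups (DMSO unactivated, DMSO with hkSE, BaP with hkSE, I3C with hkSE), which made 16 groups of 4 libraries.

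Glycolysis converts glucose to pyruvate, and macrophages that meet bacteria turn much of this pyruvate to lactate and export it. HIF-1 is a dimer of an oxygen-regulated alpha subunit (Hif1a, or Epas1 for HIF-2) with ARNT, and it switches on many glycolytic genes. Prolyl hydroxylases such as those of Egln1 and Egln3 mark the alpha subunits for destruction when oxygen is present, and AhR pairs with the same ARNT.

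HIF with ARNT is known to bind the core letters ACGTG or GCGTG, and AhR with ARNT the core GCGTG. Upstream sequences are shown for the 3 hexokinase genes, whose responses differed in time, for Pgk1, the lower glycolysis gene called higher in all 4 activation comparisons, and for P4ha1 and Vegfa, HIF targets that moved in opposite directions at 3 h. Each run holds the 250 bases before the RefSeq start on GRCm38.p6, 5′ to 3′, and none of them lies in an annotated exon. The windows are Hk1 chr10:62379909-62380158 on the minus strand, Hk2 chr6:82774455-82774704 on the minus strand, Hk3 chr13:55021386-55021635 on the minus strand, Pgk1 chrX:106186850-106187099 on the plus strand, P4ha1 chr10:59323046-59323295 on the plus strand and Vegfa chr17:46032378-46032627 on the minus strand. Capitals mark ACGTG or GCGTG on either strand.
Hk1: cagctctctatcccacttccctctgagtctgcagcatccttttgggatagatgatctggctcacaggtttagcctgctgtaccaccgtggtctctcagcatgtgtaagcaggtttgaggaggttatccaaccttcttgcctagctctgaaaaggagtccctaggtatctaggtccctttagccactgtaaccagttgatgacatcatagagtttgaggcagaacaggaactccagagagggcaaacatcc
Hk2: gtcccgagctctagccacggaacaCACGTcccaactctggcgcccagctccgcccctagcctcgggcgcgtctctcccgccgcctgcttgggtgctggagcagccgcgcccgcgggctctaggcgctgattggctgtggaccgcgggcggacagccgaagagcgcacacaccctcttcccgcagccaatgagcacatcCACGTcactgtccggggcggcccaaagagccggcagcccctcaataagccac
Hk3: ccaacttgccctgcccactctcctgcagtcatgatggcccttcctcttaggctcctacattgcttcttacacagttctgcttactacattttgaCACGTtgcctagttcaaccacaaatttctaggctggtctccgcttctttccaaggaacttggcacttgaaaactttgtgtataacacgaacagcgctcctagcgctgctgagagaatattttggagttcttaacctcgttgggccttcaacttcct
Pgk1: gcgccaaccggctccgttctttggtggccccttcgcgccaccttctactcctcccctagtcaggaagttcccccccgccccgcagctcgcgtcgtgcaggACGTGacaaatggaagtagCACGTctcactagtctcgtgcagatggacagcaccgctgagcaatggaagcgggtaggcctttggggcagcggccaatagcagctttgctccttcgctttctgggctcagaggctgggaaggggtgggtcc
P4ha1: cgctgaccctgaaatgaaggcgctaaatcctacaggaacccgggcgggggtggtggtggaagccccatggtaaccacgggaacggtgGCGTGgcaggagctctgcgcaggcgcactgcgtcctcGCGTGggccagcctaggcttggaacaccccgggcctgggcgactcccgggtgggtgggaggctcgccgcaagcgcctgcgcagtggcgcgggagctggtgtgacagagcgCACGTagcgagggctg
Vegfa: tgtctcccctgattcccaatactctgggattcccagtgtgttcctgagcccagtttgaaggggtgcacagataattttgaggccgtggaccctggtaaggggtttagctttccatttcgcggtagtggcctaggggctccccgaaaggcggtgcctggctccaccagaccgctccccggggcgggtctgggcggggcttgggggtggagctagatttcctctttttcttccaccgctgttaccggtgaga
Hk2 had 2 matches to ACGTG, which began 226 and 52 bases before the start, Hk3 had 1 at 156 bases, and this window of Hk1 had neither core. Pgk1 had 2 matches to ACGTG at 150 and 131 bases, P4ha1 had 1 at 16 bases and 2 matches to GCGTG, and this window of Vegfa had neither. RefSeq windows were at hand for 31 of the 32 genes (not for Epas1), and the first listed window held ACGTG in 18 of 31 genes (58.1%) against 16.6% of 32851 windows of all genes. GCGTG stood in 16 of 31 (51.6%) against 28.2% of all windows, and CACGTG, which holds ACGTG on both strands, in 5 of 31 (16.1%: Bnip3, Hif1a, Ldha, Pfkm and Slc16a1) against 6.02%. The shares of the 31 genes take 1 window a gene, and those of all genes take each listed window, of which a gene can have several. The list was chosen to hold HIF targets, so its share of HIF core letters is no test. A match is a description of letters, and binding was not measured.

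Total counts were 12152496 to 50644601 in 63 libraries and 233047331 in the other (Ahr+/+, unactivated, 20 h, replicate 4). Levels are CPM, the counts of a gene scaled to the size of its library with TMM factors, and a gene is called where edgeR's quasi-likelihood test gave an adjusted p below 0.01 over 14537 genes. All 32 genes passed the filter on low counts, and 29 stood at or above its level of 0.408 CPM in each of the 64 libraries, the others being Epas1, Ddit4 and Ankrd37. The transcript of Ahr was counted at 1.09 to 14.9 CPM in Ahr+/+ and at 5.11 to 28.1 CPM in Ahr-/- libraries, which checks nothing, because a gene count does not separate a deleted part from the rest. The 9 macrophage markers summed to 19000 to 36380 CPM, and dendritic cell markers to no more than 2.63 CPM. Neutrophil markers summed to 10.2 to 50.8 CPM in unactivated libraries and 77.2 to 216 CPM at 3 h of hkSE, and fibroblast markers to 0.564 to 8.72 CPM without and 3.46 to 29.6 CPM with hkSE. Their part in the results was not tested. In bulk RNA, fewer cells of a type and less RNA per cell cannot be told apart.

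The first comparison asked how hkSE changed these genes without a ligand. At 3 h in Ahr+/+ cells 10 of the 32 genes were called higher and 7 lower, where 24.2% and 32.3% of all genes tested were called. At 3 h in Ahr-/- cells 13 were called higher and 6 lower (25.5% and 31.8% of all genes). At 20 h in Ahr+/+ cells 13 were higher and 5 lower (29.9% and 28.7%), and in Ahr-/- cells 22 were higher and 5 lower (28.3% and 26.0%). The median log2 fold change of the 32 genes was 0.14, 0.23, 0.50 and 0.99 in this order, against −0.10, −0.08, 0.00 and 0.02 over all genes. In each of the 4 comparisons the share of the list called higher lay above that of all genes and the share called lower lay below it. The higher calls were nearest to that share at 3 h in Ahr+/+ cells and farthest from it at 20 h in Ahr-/- cells, and these differences were not tested. The main fit did not pair the libraries of a mouse. With the replicate block, which does, 20 genes were called higher and 6 lower in Ahr+/+ cells after 20 h. In Ahr-/- cells these counts were 23 and 6. Among the 3 h libraries 14 were higher and 7 lower in either genotype. The compared groups alone gave 17 higher calls in Ahr+/+ and 20 in Ahr-/- cells after 20 h, and DESeq2 14 and 21. The gap in counts between the genotypes, and which genes were not called, thus depended on the fit. The shares of all genes called in these other fits are not given, so their counts are not read against other genes. Of the calls in Ahr-/- cells at 3 h, those on Pfkm (adjusted p up to 0.0534) and Epas1 (0.0275) were lost with the compared groups fitted alone, that on Pfkm also with RLE size factors, and that on Bnip3 held in 4 of 12 fits that left out a library or a mouse (every library of 1 replicate number in a genotype).

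**Figure D1:**
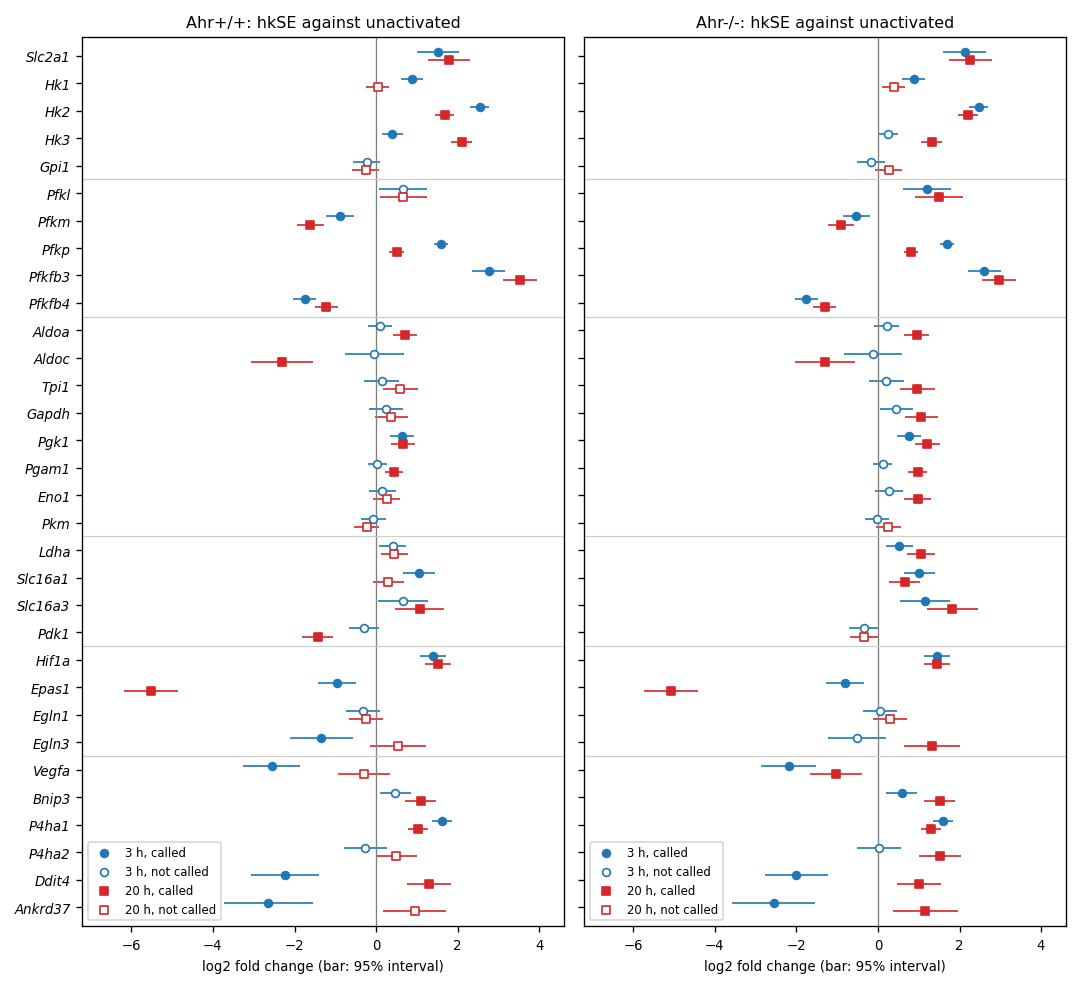
Log2 fold change of hkSE over unactivated DMSO cells for the 32 genes (rows), in Ahr+/+ (left) and Ahr-/- (right) cells at 3 h and 20 h, where filled symbols are called at an adjusted p below 0.01 and bars are 95% intervals. Pfkfb3 and Hk2 stand to the right at both times and Pfkfb4 and Pfkm to the left, and Vegfa, Ddit4 and Ankrd37 are far to the left at 3 h.

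Glucose entry rose early, and the hexokinases rose at different times. Slc2a1, the GLUT1 glucose transporter, went from 60.3, 71.9, 69.0 and 70.3 CPM in unactivated Ahr+/+ cells to 204, 179.9, 232 and 164 CPM at 3 h of hkSE (2.87-fold), and it was 3.47-fold higher at 20 h. Hk2, an inducible hexokinase that traps glucose as glucose 6-phosphate, went from 43.7, 40.5, 42.3 and 43.1 CPM to 229, 276, 246 and 232 CPM at 3 h. At 20 h Hk2 stood at 89.2, 99.6, 126 and 98.7 CPM against 31.7, 30.1, 37.2 and 30.4 CPM. The groups did not overlap at either time, and edgeR's quasi-likelihood test gave log2 fold changes of 2.54 ± 0.12 (± SE here and below) at 3 h with an adjusted p of 4.22e-26 and of 1.68 ± 0.12 at 20 h with an adjusted p of 4.89e-19. Hk1, the hexokinase of most tissues, was 1.84-fold higher at 3 h (called) and its log2 fold change was 0.04 ± 0.14 at 20 h (not called). Hk3, a myeloid hexokinase, showed the reverse order.

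Hk3 stood at 226, 214, 254 and 253 CPM in unactivated Ahr+/+ cells at 3 h and at 329.7, 327, 271 and 322 CPM with hkSE. At 20 h it went from 167, 165, 168 and 189 CPM to 849, 666, 656 and 775 CPM. The groups did not overlap at either time, but the rise was small at 3 h (log2 fold change 0.40 ± 0.13, adjusted p = 0.00476) and 4.28-fold at 20 h (2.10 ± 0.13, adjusted p = 9.77e-21). The call at 3 h was lost with the series of the library identifiers as a covariate, without unactivated replicate 1 or 2 and without all libraries of mouse 1, 2 or 4 (adjusted p up to 0.125). The effect on Hk3 grew by 1.70 ± 0.18 from 3 h to 20 h, and those on Hk1 and Hk2 changed by −0.84 ± 0.20 and −0.86 ± 0.16 (all called). Per kb of exon, Hk3 had the highest level of the 3 in unactivated Ahr+/+ cells at 3 h, with 64.3 ± 5.39 CPM per kb (SD, n = 4), above Hk1 with 13.0 ± 1.38 and Hk2 with 7.10 ± 0.227. Exon length, here and below, counts each base in an exon of any annotated transcript of the gene. Levels per kb and their order therefore depend on the annotation. Hk2 reached 41.2 ± 3.58 CPM per kb at 3 h of hkSE, and Hk3 200.1 ± 25.0 CPM per kb at 20 h. Gpi1, which isomerises glucose 6-phosphate, was called in none of the 4 comparisons, with log2 fold changes from −0.25 to 0.27.

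At the phosphofructokinase step the isozymes and the regulators moved apart. Pfkfb3, a kinase that makes fructose 2,6-bisphosphate and so speeds phosphofructokinase, rose from 28.3, 26.2, 28.1 and 28.5 CPM to 180.0, 229.7, 169 and 171 CPM at 3 h in Ahr+/+ cells. At 20 h it went from 27.2, 29.5, 28.2 and 28.1 CPM to 308, 414, 323 and 255 CPM. No activated library came near the unactivated ones, and the log2 fold changes of 2.75 ± 0.21 at 3 h (adjusted p = 1.64e-17) and 3.52 ± 0.21 at 20 h (adjusted p = 2.02e-21) were the highest of the 32 genes in Ahr+/+ cells. Pfkfb4, of the same family, fell from 40.2, 46.4, 48.1 and 43.7 CPM to 13.6, 12.1, 14.7 and 12.6 CPM at 3 h (log2 fold change −1.75 ± 0.14, adjusted p = 6.50e-16), again without overlap. It was 2.33-fold lower at 20 h, and in Ahr-/- cells 3.36-fold and 2.47-fold lower at 3 h and 20 h (all called).

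Of the phosphofructokinase subunits, Pfkp, the platelet type, rose 3.00-fold at 3 h and 1.41-fold at 20 h in Ahr+/+ cells, and Pfkm, the muscle type, was 1.85-fold and 3.06-fold lower (all called). Pfkl, the liver type, was not called in Ahr+/+ cells, with log2 fold changes of 0.66 ± 0.29 at 3 h (adjusted p = 0.0446) and 0.67 ± 0.29 at 20 h (adjusted p = 0.0382). In Ahr-/- cells Pfkl was called higher, 2.29-fold at 3 h and 2.84-fold at 20 h, and its activated libraries at 3 h spread from 61.9 to 177 CPM. Per kb of exon, Pfkl (8.56 ± 1.27) and Pfkp (7.98 ± 0.314) did not differ beyond their spread in unactivated Ahr+/+ cells at 3 h, and Pfkm was lower (3.68 ± 0.182 CPM per kb). The exon length was 13401 bases for Pfkp, 6675 for Pfkl and 3340 for Pfkm, so this order rests on the annotation. At 3 h of hkSE Pfkp stood at 23.9 ± 0.907, Pfkl at 13.5 ± 3.20 and Pfkm at 1.99 ± 0.227 CPM per kb (SD, n = 4 each).

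**Figure D2:**
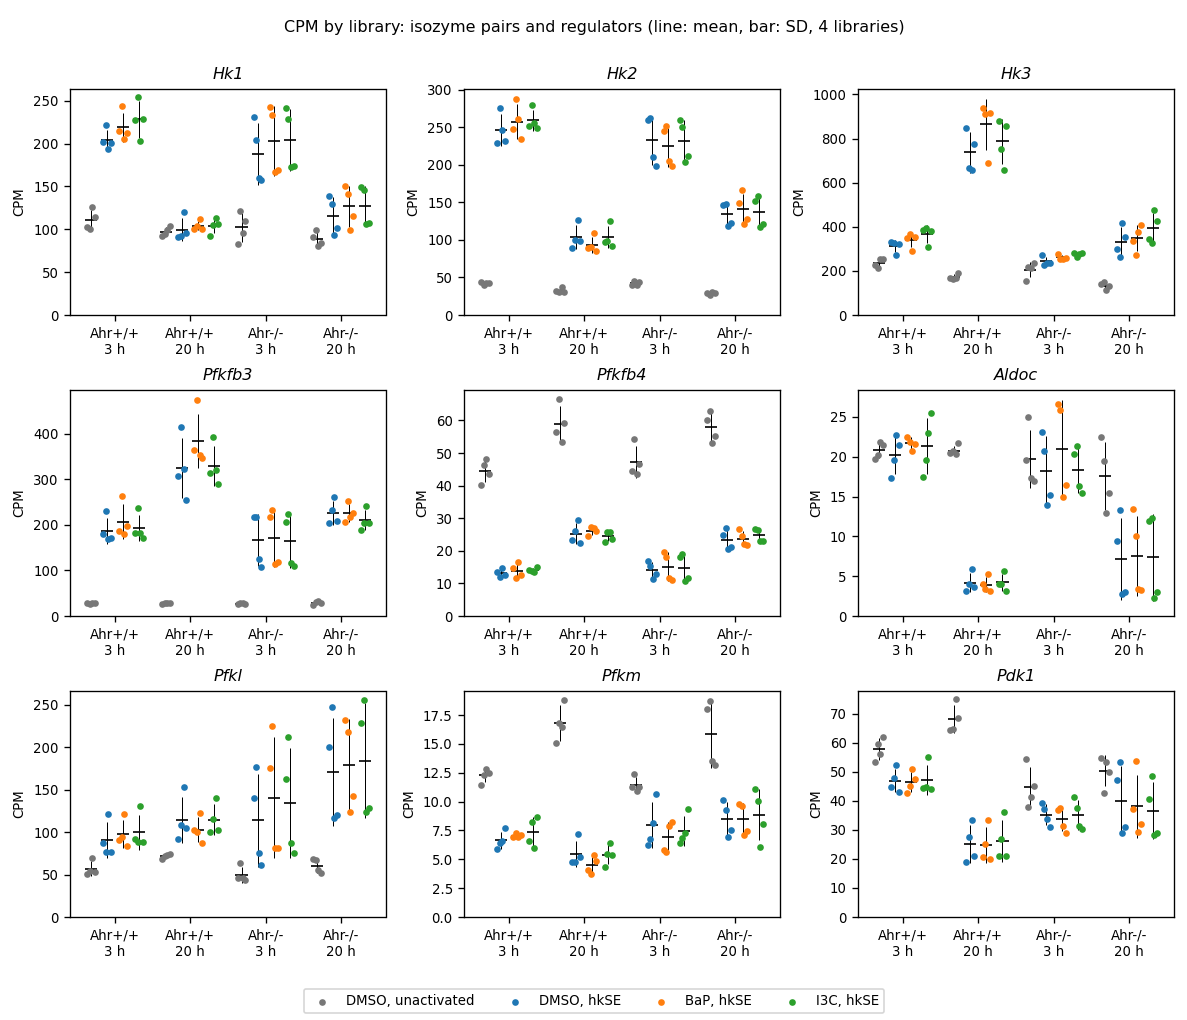
CPM in each of the 64 libraries (points) for 9 glycolytic genes and regulators, by genotype, time and treatment, with lines for means and bars for SD of 4 libraries. In Ahr+/+ cells with DMSO and hkSE, Hk2 is higher at 3 h (229 to 276 CPM) than at 20 h and Hk3 higher at 20 h (656 to 849 CPM), and Pfkfb3 rises where Pfkfb4 falls.

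Lower glycolysis runs from aldolase to pyruvate kinase. At 3 h 1 of its 8 genes was called higher in each genotype, Pgk1, and 0 were called lower. Of all genes 24.2% were called higher and 32.3% lower in Ahr+/+ cells, and 25.5% and 31.8% in Ahr-/- cells. With 8 genes nothing is read from these counts. Pgk1, which makes the first ATP of the pathway, went from 415, 435, 484 and 494 CPM to 674, 706, 789 and 681 CPM in Ahr+/+ cells at 3 h (1.56-fold, adjusted p = 0.000148). The groups did not overlap. At 20 h Aldoa, Pgk1 and Pgam1 were called higher and Aldoc lower in Ahr+/+ cells. Ahr-/- cells at that time had calls of higher Aldoa, Tpi1, Gapdh, Pgk1, Pgam1 and Eno1 and of lower Aldoc. The shares of all genes at 20 h were 29.9% higher and 28.7% lower in Ahr+/+ cells, and 28.3% and 26.0% in Ahr-/- cells.

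The rises at 20 h in Ahr-/- cells were 1.94-fold for Aldoa, 1.96-fold for Tpi1, 1.96-fold for Eno1, 1.97-fold for Pgam1, 2.10-fold for Gapdh and 2.32-fold for Pgk1. In Ahr+/+ cells at 20 h Aldoa stood at 1.64-fold, Pgk1 at 1.57-fold and Pgam1 at 1.35-fold, and Tpi1, Gapdh and Eno1 were not called (adjusted p = 0.0119, 0.0989 and 0.165). Pkm, pyruvate kinase, was called in none of the 4 comparisons, with log2 fold changes from −0.23 to 0.26. Aldoc, an aldolase best known from brain, fell at 20 h in Ahr+/+ cells from 20.4, 20.7, 20.3 and 21.7 CPM to 3.15, 4.07, 5.94 and 3.62 CPM (4.94-fold lower, adjusted p = 4.55e-07). Aldoc in Ahr-/- cells read 9.47, 13.3, 2.80 and 3.05 CPM with hkSE against 22.4, 19.5, 12.9 and 15.4 CPM, and the groups overlapped (2.47-fold lower, adjusted p = 0.00162). That last call was lost with the compared groups alone, without activated replicate 3 or 4 and without mouse 4 (adjusted p up to 0.0350).

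Per kb of exon in unactivated Ahr+/+ cells at 3 h the levels were Aldoa 395 ± 63.8, Pkm 359 ± 46.9, Ldha 220.0 ± 22.4, Pgk1 204 ± 16.9, Eno1 138 ± 19.8, Tpi1 129.9 ± 15.2, Pgam1 117 ± 14.5 and Gapdh 21.3 ± 2.85 CPM per kb (SD, n = 4). Aldoa and Pkm did not differ beyond their spread, nor did Ldha and Pgk1, nor Eno1, Tpi1 and Pgam1. The Gapdh level is uncertain, since 77 genes of the annotation, 74 of them pseudogenes, are near-identical to it, and a median of 27.6% of the counts of Gapdh and its copies stood on the copies. That share was 3.05% for Pkm, 1.62% for Eno1 and 1.11% for Bnip3, and lower for the other genes of the list. These shares cover counted reads only. Reads without a unique alignment, 12.4% to 15.8% of a library, were not counted. How many of those came from Gapdh or other genes with copies was not measured, so the shares do not give the loss.

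Lactate dehydrogenase and both lactate transporters were called higher at both times in Ahr-/- cells. Ldha, which turns pyruvate to lactate, had log2 fold changes of 0.40 ± 0.17 at 3 h (adjusted p = 0.0304) and 0.45 ± 0.17 at 20 h (adjusted p = 0.0152) in Ahr+/+ cells, and in Ahr-/- cells it was 1.44-fold higher at 3 h and 2.07-fold higher at 20 h (both called). Slc16a3, the MCT4 lactate exporter, went from 67.1, 70.0, 65.0 and 62.5 CPM to 119.7, 153, 169.8 and 111 CPM at 20 h in Ahr+/+ cells (2.09-fold, adjusted p = 0.00172). Slc16a3 in Ahr-/- cells went from 58.1, 58.1, 44.7 and 46.7 CPM to 218, 273, 124 and 120.5 CPM (3.54-fold, adjusted p = 8.39e-07). Neither pair of groups overlapped, and replicates 1 and 2 of the activated Ahr-/- cells were the high ones. Slc16a1, the MCT1 transporter, rose 2.07-fold in Ahr+/+ and 2.03-fold in Ahr-/- cells at 3 h (both called), and had a log2 fold change of 0.30 ± 0.19 at 20 h in Ahr+/+ cells (not called). The Ahr-/- call on Ldha at 3 h was lost with the identifier series as a covariate, without unactivated replicate 1 or 3 and without mouse 1 or 2 (adjusted p up to 0.0357). For Slc16a1 the Ahr-/- call at 20 h was lost with the compared groups alone, without unactivated replicate 2, without activated replicate 3 or 4 and without mouse 2 (up to 0.0759). For Slc16a3 the Ahr-/- call at 3 h was lost without mouse 1 (0.0134), and the Ahr+/+ call at 20 h without mouse 2 or 3 (up to 0.0221).

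Pdk1, the kinase that keeps pyruvate out of the mitochondrial dehydrogenase complex, fell at 20 h in Ahr+/+ cells from 64.6, 64.8, 75.0 and 68.6 CPM to 18.9, 27.7, 33.3 and 21.1 CPM (2.70-fold lower, adjusted p = 1.06e-09). In Ahr-/- cells it went from 54.9, 42.9, 53.5 and 50.1 CPM to 47.2, 53.3, 28.9 and 31.1 CPM, where the groups overlapped and the change was not called (log2 fold change −0.33 ± 0.18, adjusted p = 0.106). At 3 h Pdk1 was not called in either genotype (log2 fold changes −0.30 and −0.34).

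Among the HIF genes Hif1a rose and Epas1 fell. Hif1a, which encodes HIF-1 alpha (chr12:73901375-73947530 on mm10), went from 112, 149, 103 and 109 CPM to 284, 335, 349.5 and 278 CPM at 3 h in Ahr+/+ cells (2.63-fold). At 20 h it went from 86.7, 103, 113 and 88.9 CPM to 238, 362, 305 and 219 CPM (2.88-fold). The groups did not overlap, the Ahr-/- rises were 2.73-fold and 2.72-fold, and the 4 adjusted p-values of edgeR's quasi-likelihood test lay between 1.35e-12 and 2.09e-11. Epas1, which encodes HIF-2 alpha, was at 5.50, 4.67, 3.65 and 4.93 CPM in unactivated Ahr+/+ cells at 3 h and at 2.81, 2.49, 1.87 and 2.46 CPM with hkSE (1.95-fold lower, adjusted p = 0.000372). At 20 h 5, 2, 0 and 5 reads were counted in the activated Ahr+/+ libraries and 3, 1, 3 and 7 in the Ahr-/- ones, against 151, 135, 143 and 1064 and 141, 38, 145 and 187 in the unactivated libraries. The fitted log2 fold changes at 20 h were −5.52 ± 0.33 and −5.06 ± 0.33, sizes that rest on 12 and 14 reads in the activated groups.

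The prolyl hydroxylases differed. Egln1, the main oxygen sensor, was called in none of the 4 comparisons, with log2 fold changes from −0.32 to 0.30. Egln3, itself a HIF target, went from 11.8, 11.2, 11.2 and 8.35 CPM to 4.64, 3.39, 6.09 and 2.78 CPM at 3 h in Ahr+/+ cells (2.54-fold lower, adjusted p = 0.00192). At 20 h its log2 fold change was 0.54 ± 0.34 in Ahr+/+ cells (not called), and it was 2.52-fold higher in Ahr-/- cells (called), where the activated libraries read 32.5, 41.2, 15.3 and 13.0 CPM against 10.9, 10.1, 10.4 and 9.06 CPM. The effect grew from 3 h to 20 h by 1.89 ± 0.51 in Ahr+/+ and 1.84 ± 0.49 in Ahr-/- cells (both called). The call at 3 h in Ahr+/+ cells was lost without activated replicate 2 or 4 and without mouse 1, 2 or 4 (adjusted p up to 0.0235), and that at 20 h in Ahr-/- cells without activated replicate 2 (0.0116). Those on the growth were lost without mouse 1 or 2 in Ahr+/+ (up to 0.0242) and without mouse 1 in Ahr-/- cells (0.0200).

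**Figure D3:**
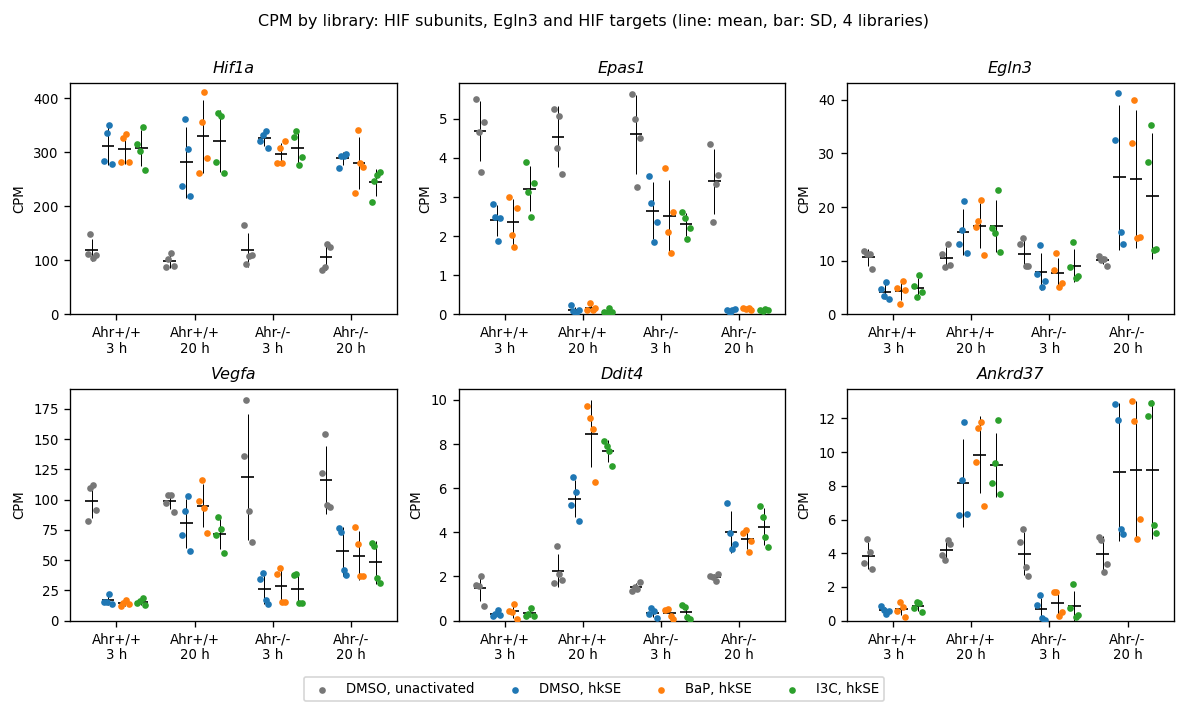
CPM in each of the 64 libraries (points) for Hif1a, Epas1, Egln3, Vegfa, Ddit4 and Ankrd37, by genotype, time and treatment, with lines for means and bars for SD of 4 libraries. Hif1a is high in the activated groups, Epas1 is near 0 in those at 20 h, and Vegfa (14.0 to 22.2 CPM in Ahr+/+ cells with DMSO), Ddit4 and Ankrd37 are low in those at 3 h.

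HIF targets outside glycolysis had calls in both directions at 3 h. In Ahr+/+ cells 1 of 6 was called higher and 3 lower, where 24.2% and 32.3% of all genes were called. With 6 genes nothing is read from these counts. Vegfa, the endothelial growth factor, fell from 82.7, 109, 112 and 91.2 CPM to 15.7, 15.2, 22.2 and 14.0 CPM (5.91-fold lower, adjusted p = 4.32e-09). Ankrd37, an ankyrin-repeat gene induced by hypoxia, fell from 3.41, 4.87, 4.04 and 3.04 CPM to 0.844, 0.622, 0.415 and 0.582 CPM, and Ddit4, whose protein restrains mTOR, from 1.61, 1.56, 2.02 and 0.664 CPM to 0.211, 0.283, 0.485 and 0.259 CPM. Their log2 fold changes of −2.65 ± 0.54 and −2.24 ± 0.42 were called and rest on 38 and 19 reads in the activated groups. P4ha1, a collagen prolyl hydroxylase, rose instead, from 74.3, 74.7, 81.4 and 76.6 CPM to 242, 233, 238 and 222 CPM (log2 fold change 1.61 ± 0.12, adjusted p = 3.46e-17). Vegfa, Ankrd37 and Ddit4 were 4.53-fold, 5.87-fold and 3.99-fold lower in Ahr-/- cells at 3 h (all called).

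By 20 h Ddit4 was higher than in unactivated cells, 2.46-fold in Ahr+/+ and 2.02-fold in Ahr-/- cells (both called). Ankrd37 had a log2 fold change of 0.95 ± 0.39 in Ahr+/+ cells (adjusted p = 0.0263, not called) and was 2.24-fold higher in Ahr-/- cells (adjusted p = 0.00820). This call on Ankrd37 was lost with RLE size factors, the compared groups alone, DESeq2 and limma, and held in 6 of 12 fits that left out a library or a mouse (adjusted p up to 0.0488). Vegfa in Ahr+/+ cells read 70.8, 90.7, 103 and 57.6 CPM against 97.5, 104, 104 and 89.9 CPM and was not called (log2 fold change −0.29 ± 0.32), while in Ahr-/- cells it was 2.03-fold lower (called). The Ahr-/- call on Vegfa was lost without unactivated replicate 1 or 2, without activated replicate 3 or 4 and without mouse 3 (up to 0.0290), and that on Ddit4 without mouse 1 (0.0144). Bnip3, a mitophagy receptor, rose 2.13-fold in Ahr+/+ and 2.86-fold in Ahr-/- cells, and P4ha1 2.04-fold and 2.45-fold (all called). P4ha2, its homolog, was 2.88-fold higher in Ahr-/- cells (called) and had a log2 fold change of 0.49 ± 0.25 in Ahr+/+ cells (not called), and the difference of these effects was not called (adjusted p = 0.0563).

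The second comparison asked which activation effects changed between 3 h and 20 h, as the difference of both log2 fold changes. In Ahr+/+ cells 5 genes were called higher and 8 lower (26.5% and 21.3% of all genes), and in Ahr-/- cells 9 higher and 2 lower (25.2% and 19.4%). Ankrd37 and Ddit4 increased by 3.60 ± 0.67 and 3.53 ± 0.49 in Ahr+/+ and by 3.72 ± 0.65 and 3.01 ± 0.47 in Ahr-/- cells. Vegfa was called higher in Ahr+/+ cells (2.27 ± 0.46), and Aldoc (−2.26 ± 0.52), Pdk1 (−1.14 ± 0.26), Pfkp (−1.08 ± 0.12), Pfkm (−0.73 ± 0.23) and P4ha1 (−0.58 ± 0.17) lower. In Ahr-/- cells Aldoa (0.74 ± 0.21), Pgam1 (0.86 ± 0.16), Eno1 (0.70 ± 0.23), Bnip3 (0.93 ± 0.27) and P4ha2 (1.50 ± 0.37) were called higher. The call on Eno1 was lost with RLE size factors, without the filter, with the compared groups alone, with DESeq2 and with limma, and held in 5 of 20 fits that left out a library or a mouse (adjusted p up to 0.0553). That on Aldoa was lost with the compared groups alone and with limma and held in 15 of 20 such fits (up to 0.0217), and that on Pfkm was lost without the filter and with the identifier series as a covariate and held in 9 of 20 (up to 0.0577). Bnip3 was lost without activated replicate 2 at 20 h or mouse 1 (up to 0.0413), and P4ha1 without unactivated replicate 3 at 20 h or mouse 1 (up to 0.0133). With the mouse as a replicate block, 12 were called higher and 9 lower in Ahr+/+ cells, and 17 and 5 in Ahr-/- cells. The shares of all genes called with that block are not given, so these counts are not read against other genes.

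The third comparison asked whether the genotype changed these responses. At 3 h the difference of the activation effects was called for 0 of the 32 genes by edgeR's quasi-likelihood test (0.0138% of all genes), with 0 at an unadjusted p below 0.05, and for 0 with DESeq2. At 20 h 2 were called (4.41% of all genes): the effect on Hk3 was −0.77 ± 0.18 (Ahr-/- minus Ahr+/+, adjusted p = 0.00250), and that on Pdk1 1.10 ± 0.26 (adjusted p = 0.00269). The difference was positive for 26 of the 32 genes, 15 had an unadjusted p below 0.05, and the median was 0.48 against 0.01 over all genes. With the replicate block 14 were called at 20 h, 12 with a higher effect in Ahr-/- cells (Hk2, Pfkl, Gpi1, Gapdh, Pgk1, Pgam1, Eno1, Pkm, Ldha, Slc16a3, Pdk1 and P4ha2) and 2 with a lower one (Hk3 and Vegfa). The share of 4.41% belongs to the main fit. Those for the block and for an unadjusted p below 0.05 are not given, so these 2 counts are not read against other genes. The call on Hk3 was lost with the compared groups fitted alone (adjusted p = 0.0217) or with the series of the library identifiers as a covariate (0.0154), and that on Pdk1 with the compared groups alone (0.0205). The count was 0 without the DMSO and hkSE library of Ahr-/- replicate 2 or of Ahr+/+ replicate 1 at 20 h.

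Between the genotypes themselves, activated cells at 20 h differed in Hk3 without overlap, at 298, 262, 416 and 354 CPM in Ahr-/- against 849, 666, 656 and 775 CPM in Ahr+/+ cells. The log2 difference was −1.15 ± 0.13 (2.22-fold lower, adjusted p = 1.13e-09 by edgeR's quasi-likelihood test), and it was called under each alternative tried and without each library. With the compared groups alone, which take 1 library a mouse, the same test gave an adjusted p of 0.00279. The main fit took the libraries of a mouse in different groups as independent, which limits its p-values between genotypes. Pfkm was 1.54-fold and Pdk1 1.59-fold higher in Ahr-/- cells (adjusted p = 0.00422 and 0.00573), in a comparison in which 12.5% of all genes were called. Their groups overlapped, and both calls were lost with the compared groups alone (0.0377 and 0.0779) and with the identifier series as a covariate (0.050 and 0.211), and they held in 6 of 16 and 7 of 16 fits that left out a library or a mouse. All Ahr-/- libraries at 20 h carry identifiers of 1 series and all activated Ahr+/+ libraries at 20 h those of another, so that this series and the genotype cannot be told apart there.

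In unactivated cells at 3 h Pgam1, phosphoglycerate mutase, was 1.41-fold lower in Ahr-/- cells (165 ± 10.4 against 233 ± 28.7 CPM, adjusted p = 0.00690 by edgeR, with 1.21% of all genes called), and it was not called with the compared groups alone (0.0504) or with the identifier series as a covariate (0.01002) and held in 4 of 16 fits that left out a library or a mouse (adjusted p up to 0.0512). In unactivated cells at 20 h 0 were called by edgeR's quasi-likelihood test (0.702% of all genes), 6 had an unadjusted p below 0.05, and DESeq2 called 1. In activated cells at 3 h 0 were called (2.83% of all genes), 5 had an unadjusted p below 0.05, and DESeq2 called 0. From 3 h to 20 h without activation Pgam1 fell 1.34-fold in Ahr+/+ cells (6.07% of all genes called), and Hk2 and Hk3 fell 1.45-fold and 1.54-fold in Ahr-/- cells (6.98% called). This call on Pgam1 was lost without the filter and with the identifier series as a covariate and held in 2 of 12 fits that left out a library or a mouse (adjusted p up to 0.0685). Those on Hk2 and Hk3 were lost with the compared groups alone, with the identifier series as a covariate, and without mouse 2 for Hk2 and mouse 4 for Hk3 (up to 0.0319 and 0.0619). With the replicate block 1 was called higher and 4 lower in Ahr+/+ and 6 lower in Ahr-/- cells. The shares of all genes for the block and for an unadjusted p below 0.05 are not given here.

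Levels in activated Ahr-/- cells followed the replicate number, which is taken to mark the mouse. In the 6 activated Ahr-/- groups the median deviation of the 32 genes from their group means was 0.22 and 0.30 log2 CPM in replicates 1 and 2 and −0.24 and −0.24 in replicates 3 and 4, where the medians over all genes lay between −0.02 and 0.02. Of the 32 genes 29, 28, 2 and 5 lay above their group mean in replicates 1 to 4, against 52.5%, 54.4%, 46.1% and 47.6% of all genes. Wide deviations were those of Ankrd37 (0.73, 1.04, −0.97 and −0.80), Aldoc (0.64, 0.63, −0.69 and −0.58), Vegfa (0.57, 0.57, −0.51 and −0.63) and Slc16a3 (0.42, 0.66, −0.53 and −0.56). In CPM, Slc2a1 at 3 h of hkSE read 283, 334, 153 and 130.0 in Ahr-/- against 204, 179.9, 232 and 164 in Ahr+/+ cells. Slc16a1 ran the other way (−0.34, −0.16, 0.26 and 0.25), as did Hk3 by less (−0.01, −0.19, 0.12 and 0.08). Hif1a stayed close to its group means (−0.10, 0.10, −0.01 and 0.01). In unactivated Ahr-/- cells the medians were 0.06, 0.15, −0.11 and −0.04, and in activated Ahr+/+ cells −0.08, −0.01, 0.22 and −0.10, where 29 of the 32 genes lay above the mean in replicate 3. Unactivated Ahr+/+ cells had medians of −0.09, −0.05, 0.11 and 0.02. There 30 of the 32 genes lay above the mean in replicate 3 and 3 in replicate 1, against 48.3% and 42% of all genes.

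Other genes moved with the same replicate numbers. Col1a1, a fibroblast marker, was at no more than 0.433 CPM in the Ahr-/- libraries of replicates 1 and 2 and at 0.753 to 3.54 CPM in those of replicates 3 and 4. Col1a2 deviated the same way in activated Ahr-/- cells (−0.928, −1.809, 1.413 and 1.323 log2 CPM). Of the same marker list, Pdgfrb ran the other way there (0.355, 0.311, −0.338 and −0.328). Dcn showed no such split (0.079, −0.182, 0.069 and 0.034). Lyz2, a macrophage marker, stood at 18730 to 22140 CPM in replicates 1 and 2 of activated Ahr-/- cells at 20 h and at 11620 to 12510 CPM in replicates 3 and 4. At 3 h these ranges were 22900 to 24960 and 20330 to 22000 CPM. Itgam, Csf1r, Cd68, Mertk, Cd14 and Spi1 leaned the same way over the activated groups. Adgre1 stayed close to its group means (−0.04, 0.028, −0.024 and 0.036 log2 CPM). Fcgr1 did not follow Lyz2 (−0.097, −0.019, 0.126 and −0.011). Their part in the result was not tested. With a whole mouse left out, the 2 genotype differences in the activation effect at 20 h (Hk3 and Pdk1) became 0 without replicate 1 or 2 of Ahr-/- and without replicate 1 or 4 of Ahr+/+, and 1 without replicate 2 of Ahr+/+. The 3 genotype calls in activated cells at 20 h (Hk3, Pfkm and Pdk1) became 5 without replicate 3 of Ahr+/+ and 1 without replicate 1 or 2 of Ahr-/- or replicate 1, 2 or 4 of Ahr+/+.

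**Figure D4:**
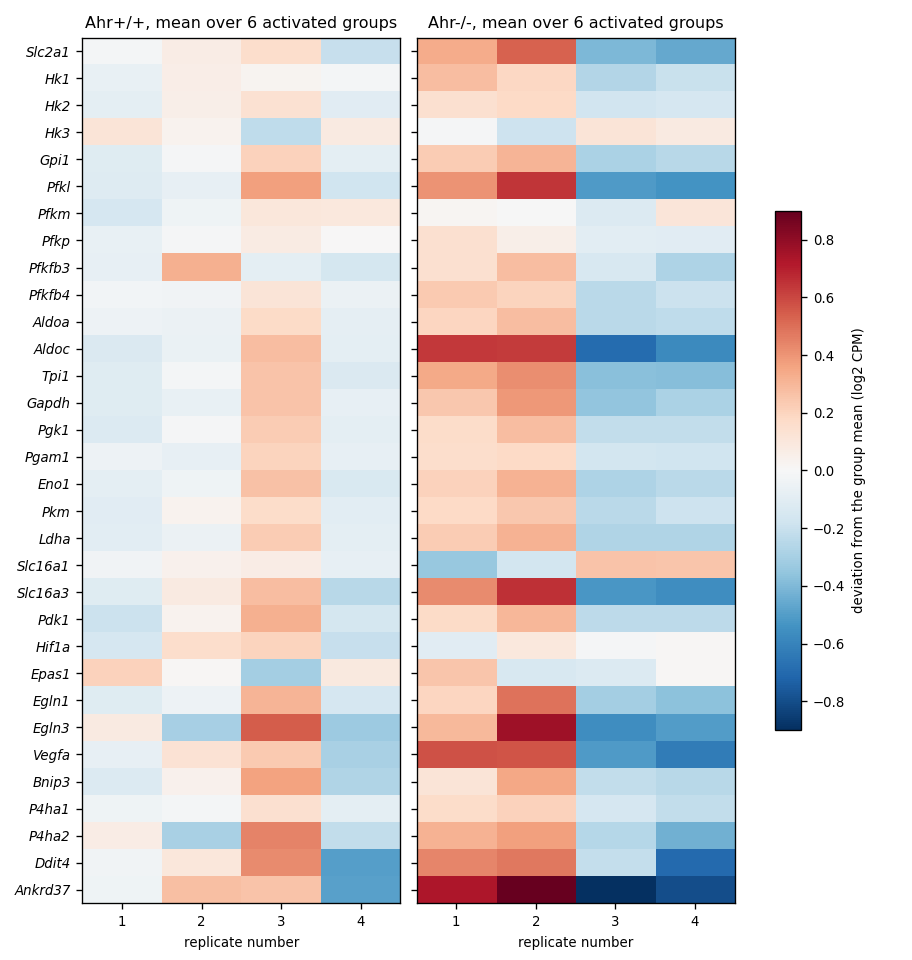
Deviation from the group mean, in log2 CPM (colour), of each of the 32 genes (rows) by replicate number (columns), as the mean over the 6 activated groups of Ahr+/+ (left) and Ahr-/- (right) cells. In activated Ahr-/- cells 29 and 28 rows are above the mean in replicates 1 and 2 and 2 and 5 in replicates 3 and 4, with Slc16a1 and Hk3 reversed.

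The last comparison asked whether an AhR ligand changed these genes in activated cells. For BaP or I3C against DMSO, in either genotype and at either time, 0 of the 32 genes were called by edgeR's quasi-likelihood test in 8 comparisons, and 0 with DESeq2. Ahrr, a direct target of AhR, stood at 17.2 to 20.7 CPM with BaP and 14.4 to 17.1 CPM with I3C at 20 h in Ahr+/+ cells, against 4.58 to 6.16 CPM with DMSO. The share of all genes called was 0.0482% and 0.234% for BaP in Ahr+/+ cells at 3 h and 20 h and 0.131% and 0.509% for I3C. The Ahr-/- shares were 0.0275% and 0.0138% for BaP and 0.0206% and 0.206% for I3C. Of 256 values 2 had an unadjusted p below 0.05, and the smallest adjusted p was 0.345, for Ddit4 with BaP in Ahr+/+ cells at 20 h. Ddit4 read 9.73, 9.17, 8.69 and 6.29 CPM there against 5.26, 6.50, 5.85 and 4.52 CPM with DMSO, and the groups overlapped (log2 fold change 0.61 ± 0.25). Leaving out Epas1, Ddit4 and Ankrd37, which had few reads, the farthest log2 fold change from 0 was 0.48 in size, and 230 of 232 intervals of 95% lay within −1 and 1. Changes inside these intervals are not excluded with 4 libraries a group.

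Pfkfb3, with the highest rise on activation, read 364, 474, 353 and 346 CPM with BaP and 314, 392, 321 and 291 CPM with I3C in Ahr+/+ cells at 20 h, against 308, 414, 323 and 255 CPM with DMSO. Vegfa read 99.0, 116, 92.8 and 72.6 CPM with BaP and 70.6, 85.5, 75.3 and 55.6 CPM with I3C, against 70.8, 90.7, 103 and 57.6 CPM. For both genes each ligand group overlapped with the DMSO group. The difference of a ligand effect between the genotypes was called for 0 of the 32 genes for either ligand at either time (0.0138% of all genes for BaP at 3 h and 0% in the other 3 comparisons), with 1 at an unadjusted p below 0.05 (Ddit4 with BaP at 20 h), and DESeq2 called 0. The ligands were not compared with each other, since their doses differed.

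**Figure D5:**
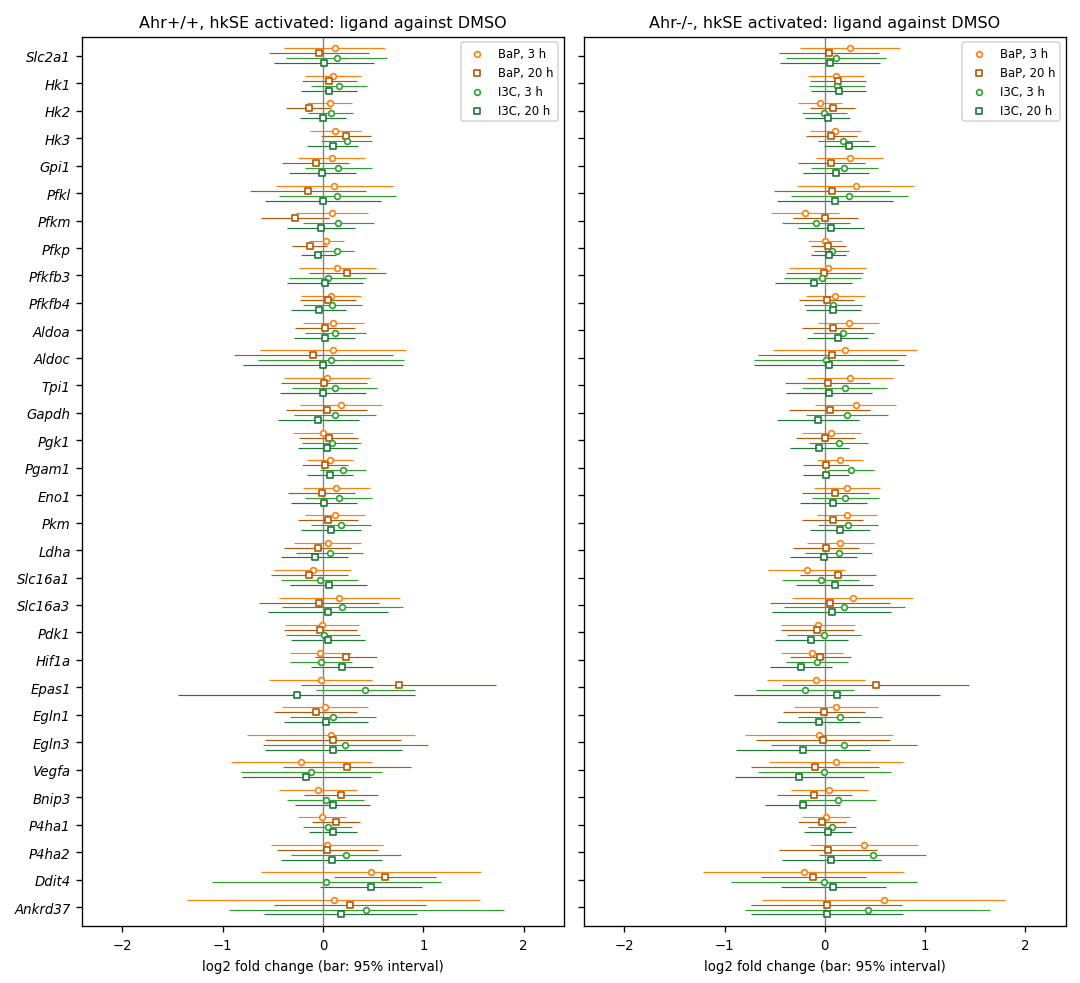
Log2 fold change of BaP or I3C over DMSO in hkSE-activated cells for the 32 genes (rows), in Ahr+/+ (left) and Ahr-/- (right) cells at 3 h and 20 h, with bars for 95% intervals. Of 256 values 252 lie between −0.5 and 0.5, and wide bars belong to Epas1, Ddit4 and Ankrd37.

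Of 62 further genes of these pathways 51 were tested on activation: 17 were called higher and 13 lower at 3 h in Ahr+/+ cells (24.2% and 32.3% of all genes), 18 and 14 in Ahr-/- cells (25.5% and 31.8%), 25 and 12 at 20 h in Ahr+/+ cells (29.9% and 28.7%) and 27 and 10 in Ahr-/- cells (28.3% and 26.0%). The counts of the single lists that follow stand against the same Ahr+/+ shares, and with 2 to 18 genes a list nothing is read from them. Slc2a6, a transporter of the GLUT family, rose from 26.8 to 35.3 CPM to 455 to 493 CPM at 3 h in Ahr+/+ cells (log2 fold change 3.90 ± 0.20). At 20 h of hkSE it was lower in Ahr-/- cells, with 53.5 to 101 CPM against 139 to 189 CPM (−1.07 ± 0.18, adjusted p = 9.77e-06). Among 9 tested isozymes and transporters 1 was called higher and 4 lower at 3 h and 2 and 5 at 20 h in Ahr+/+ cells. Ldhb, the heart type of lactate dehydrogenase, had a log2 fold change of −3.82 ± 0.30 at 20 h in Ahr+/+ cells (called), and Pfkfb2 one of −2.65 ± 0.20 at 3 h (called).

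Against shares of all genes of 24.2% higher and 32.3% lower at 3 h and 29.9% and 28.7% at 20 h in Ahr+/+ cells, of 9 tested genes of pyruvate entry to the mitochondrion 3 were called higher and 2 lower at 3 h and 5 and 1 at 20 h in Ahr+/+ cells. Pdk2 there had log2 fold changes of −2.72 ± 0.34 at 3 h and −2.82 ± 0.30 at 20 h in Ahr+/+ cells, and Pdk3 of 1.34 ± 0.17 at 3 h (all called). In the pentose phosphate pathway 1 of 7 was higher and 1 lower at 3 h and 3 and 3 at 20 h. Rpe of this pathway was called higher at 3 h and 20 h (1.02 ± 0.18 and 1.44 ± 0.17) and Taldo1 lower at 20 h (−1.11 ± 0.14). Of 2 tested genes of gluconeogenesis and fructose-2,6-bisphosphatase 0 was called higher and 1 lower at 3 h and 1 and 0 at 20 h in Ahr+/+ cells. Pck2, of gluconeogenesis, was lower at 3 h (−2.48 ± 0.12), and at 20 h it read 41.4 to 53.3 CPM against 36.5 to 48.3 CPM (not called). Of 6 HIF partners and oxygen sensors 2 were called higher and 1 lower at 3 h and 4 and 0 at 20 h in Ahr+/+ cells. Arnt, the partner that HIF and AhR share, had a log2 fold change of 0.04 ± 0.06 at 3 h (not called) and 0.40 ± 0.06 at 20 h (called) in Ahr+/+ cells. Vhl, which ubiquitinates HIF alpha, rose by 0.55 ± 0.09 and 0.74 ± 0.08 (both called).

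Of 18 tested HIF targets outside the 32 genes 10 were called higher and 4 lower at 3 h in Ahr+/+ cells (24.2% and 32.3% of all genes), and 10 and 3 at 20 h (29.9% and 28.7%). Nos2, inducible nitric oxide synthase, went from at most 0.759 CPM to 790.5 to 1245 CPM at 3 h, and at 20 h of hkSE it was lower in Ahr-/- cells, with 63.0 to 161 CPM against 174 to 330.1 CPM (−1.30 ± 0.29, adjusted p = 0.000755). Adm, adrenomedullin, was at 0 in the unactivated Ahr+/+ libraries at 3 h and at 1.03 to 1.52 CPM with hkSE.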

How the data were processed

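mRNA of 64 libraries (16 groups of 4) was sequenced by the authors with a stranded TruSeq kit on an Illumina HiSeq instrument, and the reads were demultiplexed with bcl2fastq 2.19.0.316, aligned to mm10 with HISAT2 2.1.0 and counted per gene with HTSeq 0.9.1 (reverse strand, intersection-strict, GENCODE M22). The deposited values are raw read counts per gene, and a deposited table of log2 values holds the counts after the authors' variance-stabilizing transformation (14549 genes), used in 1 alternative only. The special rows of HTSeq were left out, and 75.0% to 80.8% of reads lay on genes. Counts were joined to GENCODE M21 by ID (55394 of 55487 genes), which also gave positions and exon lengths, and upstream windows are RefSeq's.

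From the counts, CPM and tests were computed with edgeR 4.0.16 in R 4.3.3: genes with low counts were removed (filterByExpr, minimum count 10), libraries scaled by TMM, 1 quasi-likelihood fit of 16 group means made on 64 libraries (48 residual degrees of freedom) and p-values adjusted after Benjamini-Hochberg over 14537 genes, with calls at 0.01. Alternatives were RLE size factors, no filter, the compared groups alone, a replicate block, the identifier series as a covariate, DESeq2 1.42.0, limma 3.58.1, a threshold of 0.05, a prior count of 0.5 in place of 2 and each library left out. Leaving out each mouse was added after seeing the data. Replicate numbers were taken as the 4 mice of each genotype named in the methods. Deviations of same-numbered libraries from group means correlated above 0.1 in 17 of 28 group pairs for Ahr+/+ (0.0347 to 0.255) and in 26 of 28 for Ahr-/- (−0.211 to 0.643), and genotypes were compared unpaired. In a test on simulated data for activation of Ahr+/+ cells at 3 h, 58% of 200 changed genes among 14537 were called, with 2 false calls. The planted changes were of mixed sizes, so that share holds for this mix only. Simulated libraries were independent, without differences between mice, so the false calls do not speak for data with such differences.

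By rule, values in each library are given for the called genes with large changes in each role, other genes of the list by fold changes or ranges, and at most 3 genes of each further list (Arnt as the shared partner of HIF and AhR). A gene of the further HIF list is not reported here. The 32 genes and all lists were chosen with earlier results of these data known. Counts cover sequencing depth only, and p-values rest on the spread of libraries around their group means, pooled over the 16 groups of both genotypes. That spread was unequal. In activated groups the median SD of the 32 genes was 0.333 log2 CPM in Ahr-/- and 0.199 in Ahr+/+ cells, against 0.282 and 0.183 over all genes. How far this moved the calls of each genotype was not tested.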

Additional observations from a re-analysis of the deposited data

Results flagged for a closer look

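Of 512 sets of 4 libraries (each gene in each group) 24 held 1 library far from the other 3 by Dixon's test, where chance alone flags about 1 in 20. The number of flags is thus no excess over chance, and a single flag may be chance. Replicate 3 of Ahr+/+ was that library in 15 of the 24. In that replicate stood Hk3 at 3 h (DMSO with hkSE) with 271 CPM (lowest, others 322 to 329.7), Hk3 at 20 h (BaP with hkSE) with 689 CPM (lowest, others 909.6 to 937), Gpi1 at 3 h (BaP with hkSE) with 470.0 CPM (highest, others 384 to 398) and Pfkl at 3 h (I3C with hkSE) with 131 CPM (highest, others 88.4 to 92.2). It also held Aldoa at 20 h (DMSO with hkSE) with 2000.0 CPM (highest, others 1539 to 1577), Tpi1 at 3 h (DMSO with hkSE) with 452 CPM (highest, others 366 to 377), Pgk1 at 3 h (I3C with hkSE) with 861 CPM (highest, others 720.1 to 723) and Pgam1 at 20 h (I3C with hkSE) with 292 CPM (highest, others 229 to 233). Further values were Eno1 at 20 h (DMSO with hkSE) with 938 CPM (highest, others 660.1 to 705), Ldha at 3 h (DMSO with hkSE) with 1075 CPM (highest, others 914 to 934), Pdk1 at 3 h (I3C with hkSE) with 55.1 CPM (highest, others 44.2 to 44.9) and Egln1 at 3 h (BaP with hkSE) with 41.5 CPM (highest, others 30.8 to 32.2). The remaining ones were Bnip3 at 3 h (DMSO with hkSE) with 42.9 CPM (highest, others 26.3 to 29.1), P4ha1 at 20 h (I3C with hkSE) with 205 CPM (highest, others 151 to 156) and P4ha2 at 20 h (DMSO with hkSE) with 15.2 CPM (highest, others 8.54 to 8.70). 

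The other libraries apart were of other replicates. Slc2a1 was lowest in replicate 4 of Ahr+/+ at 20 h (BaP with hkSE), with 131 CPM against 159 to 163 CPM. Hk3 was highest in replicate 4 of Ahr+/+ at 20 h (unactivated), with 189 CPM against 165 to 168 CPM. Pfkl was highest in replicate 2 of Ahr-/- at 3 h (unactivated), with 63.1 CPM against 43.1 to 46.4 CPM. Pfkfb3 was highest in replicate 2 of Ahr+/+ at 3 h (I3C with hkSE), with 237 CPM against 172 to 183 CPM. Pfkfb3 was highest in replicate 2 of Ahr+/+ at 20 h (BaP with hkSE), with 474 CPM against 346 to 364 CPM. Pgk1 was highest in replicate 1 of Ahr-/- at 20 h (unactivated), with 388 CPM against 275 to 293 CPM. Slc16a1 was lowest in replicate 1 of Ahr-/- at 20 h (BaP with hkSE), with 12.5 CPM against 16.3 to 17.1 CPM. Slc16a3 was highest in replicate 2 of Ahr-/- at 3 h (unactivated), with 100.1 CPM against 55.5 to 59.2 CPM. Hif1a was lowest in replicate 1 of Ahr-/- at 20 h (DMSO with hkSE), with 271 CPM against 292 to 296 CPM. 

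Activation effects that differed between 3 h and 20 h by the test of the difference (log2, 20 h minus 3 h) were, in Ahr+/+ cells, Hk3 (1.70), Egln3 (1.89), Vegfa (2.27), Ddit4 (3.53) and Ankrd37 (3.60) with a higher effect at 20 h and Hk1 (−0.84), Hk2 (−0.86), Pfkm (−0.73), Pfkp (−1.08), Aldoc (−2.26), Pdk1 (−1.14), Epas1 (−4.56) and P4ha1 (−0.58) with a lower one. In Ahr-/- cells they were Hk3 (1.08), Aldoa (0.74), Pgam1 (0.86), Eno1 (0.70), Egln3 (1.84), Bnip3 (0.93), P4ha2 (1.50), Ddit4 (3.01) and Ankrd37 (3.72) with a higher effect and Pfkp (−0.88) and Epas1 (−4.26) with a lower one. Between the genotypes at 20 h (Ahr-/- minus Ahr+/+) the effects differed for Hk3 (−0.77) and Pdk1 (1.10).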

How the results depend on the processing

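No call of the 114 made on the 32 genes changed direction in 2394 values under alternatives, 184 of these values were not called, and 85 calls held in each alternative and without each library or mouse. Counts of called genes moved past 1.5 times in 69 of 620 alternative counts. With the replicate block, which pairs the libraries of a mouse, 21 of the 32 genes changed effect from 3 h to 20 h in Ahr+/+ cells and 22 in Ahr-/- cells, 14 differed by genotype in the effect at 20 h, and from 3 h to 20 h without activation 5 changed in Ahr+/+ and 6 in Ahr-/- cells; it moved no other count that far. With the compared groups alone, the effect at 20 h differed by genotype for 0 genes, unactivated cells at 3 h for 0, activated cells at 20 h for 1, and culture time changed 6 genes in Ahr+/+ and 0 in Ahr-/- cells. With the identifier series as a covariate these counts were 1, 0, 1, 0 and 0. At a threshold of 0.05 they were 6 for the effect at 20 h, 1 for unactivated cells at 20 h, 1 for activated cells at 3 h, 6 for activated cells at 20 h and 4 for culture time in each genotype. DESeq2 called 1 gene between genotypes in unactivated cells at 20 h and 3 for culture time in Ahr+/+ cells, where RLE size factors gave 2, limma 2 and no filter 0. The causes were not tested, and the shares of all genes called under the alternatives are not given. With 1 library or 1 mouse left out, counts ranged from 0 to 3 for the genotype difference in effect at 20 h, 0 to 1 for unactivated cells at 3 h, 0 to 1 and 1 to 5 for activated cells at 3 h and 20 h, and 0 to 2 and 1 to 2 for culture time in Ahr+/+ and Ahr-/- cells. Epas1, Ddit4 and Ankrd37 had too few reads for firm sizes.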
